A study of Mus musculus with 4 samples.

Results

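The genes described here encode the machinery that makes fatty acids from citrate in the liver: Fasn, Acaca, Acly, Scd1, Elovl5, Elovl6, Srebf1, Thrsp, Me1 and Pnpla3. These 10 genes were picked by symbol out of 33924 gene symbols in the count files. The 4 libraries were made from livers of C57BL/6Rj mice (C57BL6 in the labels), 1 library for each age (3, 9, 15 and 21 months), and all mice were untreated males with free access to food and water. For each library, RNA of 24 mice was pooled, 4 of them killed at every 1 of 6 times of the day, so that a pool holds all phases of the daily rhythm. Single mice cannot be seen in a pool, and no library was repeated. The exact tests and intervals below therefore compare libraries with counting error only. The age trend instead takes the scatter of the 4 libraries around a line as error. Neither measures the spread between single mice. In RNA from whole liver, fewer cells of a type and less RNA per cell cannot be told apart.

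Fatty acid synthesis turns surplus sugar into fat. Acly cuts citrate to cytosolic acetyl-CoA, Acaca carboxylates it to malonyl-CoA, and Fasn joins these units to palmitate with NADPH that is partly supplied by the malic enzyme Me1. Elovl6 lengthens palmitate to stearate, Scd1 places a double bond in stearate and palmitate, and Elovl5 lengthens polyunsaturated chains. Srebf1 encodes the transcription factor SREBP-1, which is known to drive these genes after feeding and insulin. Thrsp encodes Spot 14, a small protein of lipogenic tissues, and Pnpla3 a lipase-like protein of lipid droplets.

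Capped 5’-ends of mRNA were enriched before sequencing, and between 525772 (15 months) and 958586 (9 months) reads were counted on genes. These were 6.67% to 8.42% of all alignment records, and 72.2% to 76.7% of the records had no unique position. A normalised read count is the count divided by a scale factor of its library, which is the geometric mean of the 8704 genes counted at every age. It has the form of the centered log-ratio of the study but was taken over gene counts, whereas the study used its own set of 5’-ends. The factors were 1.21, 1.18, 0.728 and 0.958 from the youngest to the oldest mice. Markers of hepatocytes (Alb, Ttr, Apoa1, Apob, Cps1, Tat, Hnf4a and Cyp2e1) were all counted, with a summed normalised read count between 74178 (15 months) and 86399 (9 months). Of the 7 adipocyte markers, Adipoq, Lep, Plin1, Cfd and Retn had 0 counts in every library, and the list summed to 17.8 at 15 months and to at most 35.5 in the others.

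Among the 10 genes, the highest level was that of Scd1, with a mean normalised read count of 14065 over the libraries. It ranked 9 among all genes, and its reads were 87.9% to 91.5% of those of the 10 genes. Fasn followed with 683, Elovl5 with 302, Thrsp with 165, Acly with 145, Srebf1 with 103, Elovl6 with 85.4, Me1 with 46.8, Acaca with 29.8 and Pnpla3 with 2.40. The values were not divided by transcript length, because the libraries were designed to read each capped RNA at its 5’-end. The ranges over the libraries did not overlap between Scd1, Fasn and Elovl5 or between Elovl5 and Thrsp, whereas Thrsp, Acly, Srebf1 and Elovl6 overlapped in steps, as did Me1 and Acaca. With increasing age, the 10 genes together took 2.56%, 1.54%, 1.69% and 2.3% of the counts on genes. Without Scd1 the shares were 0.217%, 0.186%, 0.157% and 0.248%.

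**Figure D1:**
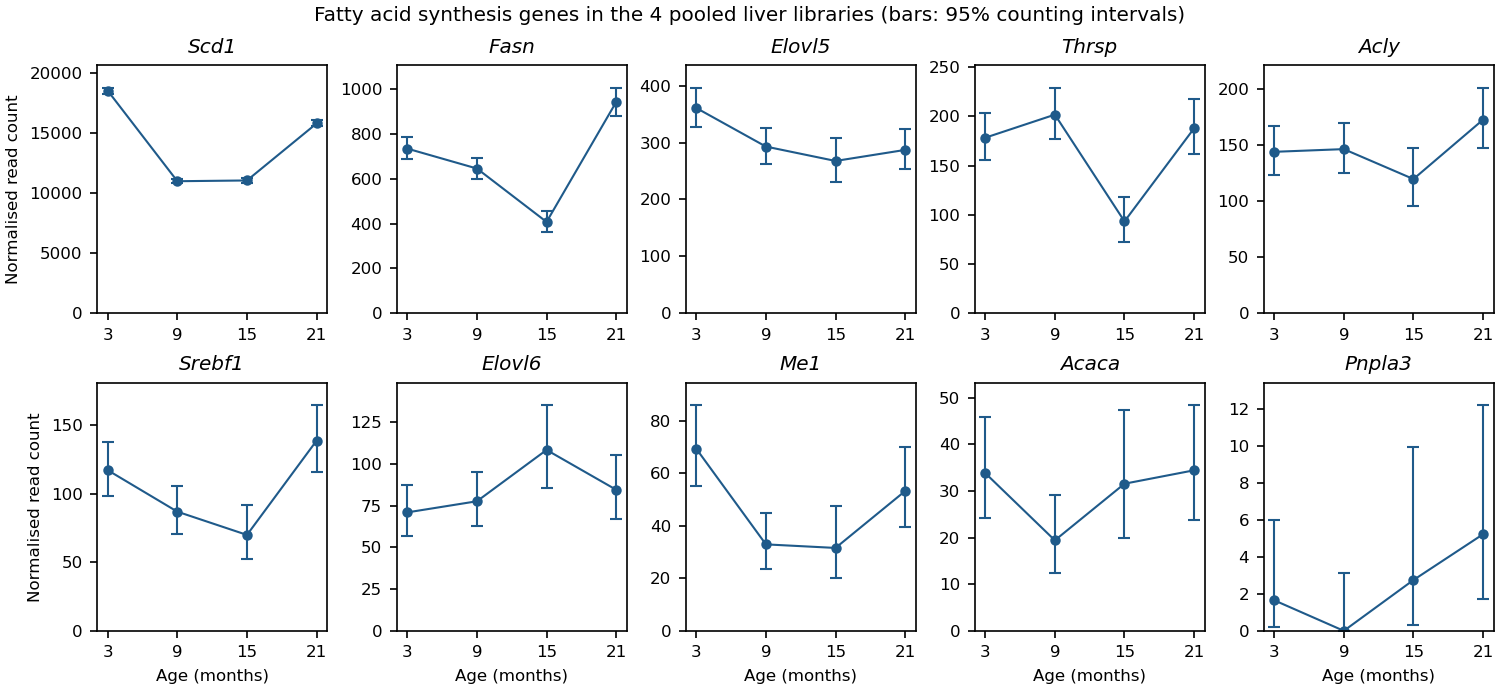
Normalised read counts of the 10 genes (vertical axes from 0, 1 panel per gene) against age in months, with points for the 4 pooled libraries and bars for 95% counting intervals. Fasn, Thrsp, Srebf1, Me1, Acly and Elovl5 had their lowest value at 15 months on this scale, while Elovl6 had its highest there, at 108. With library totals, Me1 and Elovl5 were lowest at 9 months.

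On the scale used, the steps that build palmitate were lowest at 15 months for Fasn and Acly, and at 9 months for Acaca. Fasn spans chr11:120667254-120685492 on the minus strand of NCBIM37, the build that UCSC names mm9 and that is used for all gene positions here. It had 890, 765, 297 and 903 counts at 3, 9, 15 and 21 months, or normalised read counts of 735, 646, 408 and 943. The 15 month library was the lowest and the 21 month library the highest, and neither interval (363 to 457 and 882 to 1007) overlapped that of any other library. Fasn fell to a ratio of 0.555 between 3 and 15 months (95% interval from 0.485 to 0.633, exact binomial test with Benjamini-Hochberg adjustment over 4315 genes, adjusted p = 4.13e-18). From 15 to 21 months it rose 2.31-fold (from 2.03 to 2.65, exact binomial test, adjusted p = 8.22e-38), to 1.28 times the value of the 3 month library (from 1.17 to 1.41, exact binomial test, adjusted p = 4.91e-06). The rise from 15 to 21 months and the excess over 3 months were called on each of the 6 other scales tried, whereas the fall at 15 months was not seen when counts were divided by those of Gapdh (log2 ratio 0.06).

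Acly (chr11:100337667-100389314, minus strand) had 174, 173, 87 and 165 counts with increasing age, or 144, 146, 119 and 172 after normalisation. The first 3 libraries had overlapping intervals, and the ratio of 0.831 between 3 and 15 months did not pass the test (interval from 0.635 to 1.08, exact binomial test, adjusted p = 0.387). Its rise of 1.44-fold from 15 to 21 months passed just below the threshold (from 1.11 to 1.89, exact binomial test, adjusted p = 0.0473). This call was lost on each of the 6 other scales, with adjusted p from 0.0655 to 0.969. Acaca (chr11:83943174-84215153, plus strand) had 41, 23, 23 and 33 counts, or 33.9, 19.4, 31.6 and 34.5 after normalisation. With so few reads its intervals overlapped in all libraries, and no comparison was called on this scale, also not the ratio of 0.574 at 9 months (from 0.329 to 0.979, exact binomial test, adjusted p = 0.134). With Gapdh as the scale, Acaca was called higher at 15 than at 9 months (log2 ratio 1.21, exact binomial test, adjusted p = 0.0362). Me1 (chr9:86474970-86589947, minus strand) had 84, 39, 23 and 51 counts, or 69.4, 32.9, 31.6 and 53.3. Both middle ages were low, with ratios to the 3 month library of 0.475 at 9 months (from 0.316 to 0.702, exact binomial test, adjusted p = 0.00127) and 0.455 at 15 months (from 0.274 to 0.729, adjusted p = 0.00563). With Gapdh as the scale, these calls were lost, but the ratios remained below 1 (log2 ratios of -0.67 and -0.23). The 21 month library was called neither against 3 months (ratio 0.768, from 0.531 to 1.1) nor against 15 months (ratio 1.69, from 1.01 to 2.89, exact binomial test, adjusted p = 0.185).

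The desaturase and the elongases took different courses. Scd1 (chr19:44468941-44482199, minus strand) had 22386, 12989, 8035 and 15101 counts with increasing age. The normalised values were 18487, 10970, 11032 and 15769, so that both middle ages were low and 21 months was in between. At 9 months the ratio to 3 months was 0.593 (from 0.581 to 0.606), at 15 months 0.597 (from 0.582 to 0.612) and at 21 months 0.853 (from 0.836 to 0.871). The rise from 15 to 21 months was 1.43-fold (from 1.39 to 1.47, exact binomial test, adjusted p = 2.51e-149), and between 9 and 15 months no difference was detected on this scale (ratio 1.01, from 0.978 to 1.03, exact binomial test, adjusted p = 0.905). On 4 of the 6 other scales Scd1 was called higher at 15 than at 9 months, with log2 ratios of 0.08 with TMM, 0.17 with library totals, 0.30 with the 7 normalisation genes of the study and 0.51 with Gapdh. Counting error is small for so many reads, and these intervals do not hold the spread between pools. The fall at 9 months was called on all 6 other scales, while with Gapdh as the scale the ratios at 15 and at 21 months to 3 months and that from 15 to 21 months changed direction (log2 ratios of 0.16, 0.10 and -0.06).

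Elovl5 (chr9:77765171-77832326, plus strand) had 437, 347, 195 and 275 counts, or 361, 293, 268 and 287. The 3 month library was the highest, with no overlap of its interval (328 to 396) with those of the other ages, which overlapped each other. The ratios to 3 months were 0.812 at 9 months, 0.742 at 15 months and 0.796 at 21 months (exact binomial test, adjusted p = 0.025, 0.00515 and 0.0219), and each changed direction with Gapdh as the scale. The calls at 15 and 21 months were lost with library totals (adjusted p = 0.0795 and 0.0501 in the exact binomial test) and with the 7 normalisation genes of the study, and that at 9 months with a geometric mean over genes with 20 counts in every library, a scale chosen after seeing the data. Elovl6 (chr3:129235304-129341413, plus strand) went the other way, with 86, 92, 79 and 81 counts, or 71.0, 77.7, 108 and 84.6. It was highest in the 15 month library, at 1.53 times the 3 month value (from 1.11 to 2.10, exact binomial test, adjusted p = 0.0473), and this rise was called on all 6 other scales. Without a minimum count, more genes were tested and Elovl6 was not called. Against 9 months it was not called (ratio 1.40, from 1.02 to 1.91, exact binomial test, adjusted p = 0.16), but it was with library totals, the 7 genes and Gapdh (adjusted p = 0.0401, 0.00855 and 0.000223).

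The regulators Srebf1 and Thrsp were both low at 15 months and higher again at 21 months. Srebf1 (chr11:60012591-60036083, minus strand) had 142, 103, 51 and 133 counts, or 117, 87.0, 70.0 and 139. Its 15 month value was below those at 3 and 21 months with no overlap of intervals, and the 9 month value lay in between. The ratio of 15 to 3 months was 0.597 (from 0.425 to 0.828, exact binomial test, adjusted p = 0.0118), and from 15 to 21 months Srebf1 rose 1.98-fold (from 1.43 to 2.8, adjusted p = 0.000504). With library totals or the 7 normalisation genes of the study as the scale the fall missed the threshold (exact binomial test, adjusted p = 0.0538 and 0.0541), and with Gapdh it turned to a log2 ratio of 0.16. Thrsp (chr7:104561448-104566240, minus strand) had 216, 239, 68 and 180 counts, or 178, 202, 93.4 and 188. Here the 15 month library alone was low, with an interval from 72.5 to 118, and the other 3 overlapped. Thrsp fell to 0.523 of the 3 month value (from 0.393 to 0.69, exact binomial test, adjusted p = 3.00e-05) and to 0.463 of the 9 month value (from 0.348 to 0.608, adjusted p = 1.62e-07), and rose 2.01-fold to 21 months (from 1.52 to 2.70, adjusted p = 1.47e-05). The fall from 9 to 15 months was called on all 6 other scales, but with Gapdh the log2 ratio from 3 to 15 months was only -0.03 and was not called. The rises of Srebf1 and Thrsp from 15 to 21 months were not called with Gapdh either (log2 ratios 0.41 and 0.44). Pnpla3 (chr15:83998246-84019942, plus strand) had 2, 0, 2 and 5 counts and was the only gene of the 10 without the 20 counts in any library that were needed for testing. At 9 months its 0 counts allow up to 3 counts (the one-sided limit), a normalised read count of 2.53, while the two-sided interval plotted reaches 3.12. The ratio of 21 to 3 months was 3.16 with an interval from 0.518 to 33.2.

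The promoters of 3 of these genes are shown because Fasn and Thrsp were the pair called lower from 9 to 15 months and Elovl6 was the gene with the opposite course. The sequences are the 250 bases before the start site in RefSeq, build GRCm38.p6, which held promoters for 9 of the 10 genes (12 promoters in all), but none for Scd1. The coordinates of the sequences belong to that build and not to NCBIM37. Capitals mark CCAAT on either strand (ATTGG where it lies on the strand opposite to the gene), the letters bound by NF-Y, a factor known to act together with SREBP-1.
Fasn promoter, chr11:120824548-120824797, minus strand: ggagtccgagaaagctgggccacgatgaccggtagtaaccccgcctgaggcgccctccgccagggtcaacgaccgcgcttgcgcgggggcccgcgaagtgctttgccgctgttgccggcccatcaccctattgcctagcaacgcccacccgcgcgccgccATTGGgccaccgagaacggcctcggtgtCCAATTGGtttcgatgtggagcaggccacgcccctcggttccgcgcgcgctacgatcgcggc
Thrsp promoter, chr7:97417551-97417800, minus strand: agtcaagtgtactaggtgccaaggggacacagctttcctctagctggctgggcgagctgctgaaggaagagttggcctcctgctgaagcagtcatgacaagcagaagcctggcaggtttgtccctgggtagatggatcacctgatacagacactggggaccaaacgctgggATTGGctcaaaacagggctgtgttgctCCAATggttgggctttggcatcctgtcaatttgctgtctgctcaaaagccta
Elovl6 promoter, chr3:129532136-129532385, plus strand: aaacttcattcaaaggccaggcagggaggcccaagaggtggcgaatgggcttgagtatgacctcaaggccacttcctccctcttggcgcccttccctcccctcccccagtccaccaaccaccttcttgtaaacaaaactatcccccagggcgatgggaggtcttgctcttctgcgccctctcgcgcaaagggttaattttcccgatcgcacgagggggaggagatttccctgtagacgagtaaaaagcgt
In Fasn, CCAAT was found from 90 to 86 and from 59 to 55 bases before the start site on the other strand and from 62 to 58 on the gene's strand, and the latter overlap. In Thrsp it was found from 79 to 75 on the other strand and from 52 to 48 on the gene's strand. The Elovl6 window held no match. CCAAT was present in 7 of the 12 promoters (in Fasn, Thrsp, Elovl5, Me1, Pnpla3 and Srebf1) and in 33.8% of all 32851 promoters of the table. The E-box CACGTG was found in 1 of the 12, that of Elovl5, and in 6.02% of all, and the SREBP letters TCACNCCAC in 0 of the 12 and in 1.05% of all. TATAAA was in 0 of the 12 and in 12.4% of all, and GGGCGG in 5 of the 12 and in 32.7% of all. All letters were searched on both strands, and matches of different motifs did not overlap. They describe the letters of the windows and not binding.

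To place the 9 tested genes among all genes, the calls were counted in each comparison. From 3 to 9 months, 4 of 9 genes fell (Fasn, Scd1, Elovl5 and Me1) and 0 rose, while 11.6% of the 4315 genes tested were called lower and 8.88% higher. The call of Fasn in this step was lost with TMM and DESeq2 scale factors, and with Gapdh 3 of 9 were called higher and only Scd1 lower. On the Gapdh scale 32.5% of all genes were called in this step, with 12.1% of these calls lower. From 3 to 15 months, 6 of 9 fell (Fasn, Scd1, Elovl5, Srebf1, Thrsp and Me1) and Elovl6 rose, beside 12.9% and 5.79% of all genes. With Gapdh as the scale 0 of 9 were called lower and 4 higher, while 45.1% of all genes were called, with 2.37% of these calls lower. From 9 to 15 months, Fasn and Thrsp fell and 0 of 9 rose, beside 9.92% and 4.98%. With Gapdh Thrsp was called lower and 4 of 9 higher, while 23.5% of all genes were called, with 7.41% of these calls lower. From 15 to 21 months, 5 of 9 rose (Fasn, Acly, Scd1, Srebf1 and Thrsp) and 0 fell, beside 8.39% and 4.7%, but with Gapdh only Fasn was called higher and 3 genes lower. Dividing by Gapdh called 28.3% of all genes here, with 94.9% of these calls lower. Between 3 and 21 months, Fasn was higher and Scd1 and Elovl5 were lower, beside 7.97% higher and 10.5% lower among all genes. With Gapdh 6 were called higher and 0 lower, while 25.1% of all genes were called, with 17.8% of these calls lower. None of the 9 differed by more than 1.5-fold between these ages, while 15.5% of all genes did so as higher and 22.9% as lower. These shares include genes with few reads in some libraries, whose ratios carry more counting error. They were not taken over genes with as many reads as the 9. The comparisons with 3 months share its library.

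**Figure D2:**
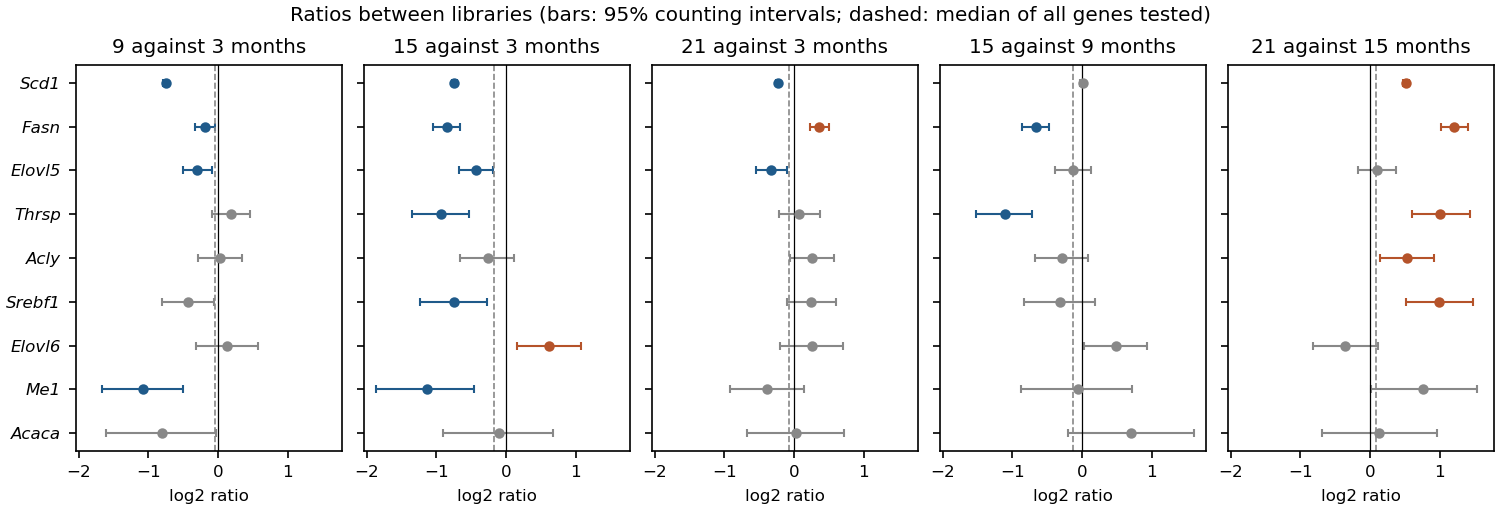
Log2 ratios of normalised read counts between libraries for the 9 genes tested, in 5 panels of 1 comparison each, with bars for 95% counting intervals, blue for called lower, orange for called higher grey for not called and a dashed line for the median of all genes. In the 15 against 3 month panel 6 genes are called lower and Elovl6 higher, and in the 21 against 15 month panel 5 genes are called higher. With Gapdh as the scale, no gene was called lower in the former, where 2.37% of the calls among all genes were lower.

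All 9 genes had at least 20 counts in every library, which makes calls easier than for a gene with few reads. Among the 1956 genes that met this, the shares called lower were 15% from 3 to 9 months, 18.7% from 3 to 15 months and 14.7% from 9 to 15 months, and 12.5% were called higher from 15 to 21 months. Fasn, Scd1, Srebf1 and Thrsp fell from 3 to 15 months and rose again to 21 months, which 7.52% of these 1956 genes and 4.29% of the 4315 genes did. Both comparisons share the 15 month library, the shallowest of the 4. The minimum over the ages was at 15 months for 6 of the 9 genes and for 34.5% of the 4315 genes.

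The median log2 ratio of the 9 genes was -0.30 from 3 to 9 months, -0.74 from 3 to 15 months, -0.13 from 9 to 15 months, 0.53 from 15 to 21 months and 0.08 from 3 to 21 months. For all 4315 genes the medians in the same order were -0.04, -0.17, -0.13, 0.09 and -0.07. The difference between both was thus smallest from 9 to 15 months, where Fasn and Thrsp were called lower and Scd1, Acaca and Elovl6 had ratios above 1 that were not called on this scale. In the distribution of the 15 over 3 month ratios, 10.9% of the genes tested had a lower ratio than Me1, 15.6% than Thrsp, 18% than Fasn and 86.7% than Elovl6. For the 21 over 15 month ratios, 92.6% lay below Fasn, 89.2% below Thrsp and 88.8% below Srebf1.

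**Figure D3:**
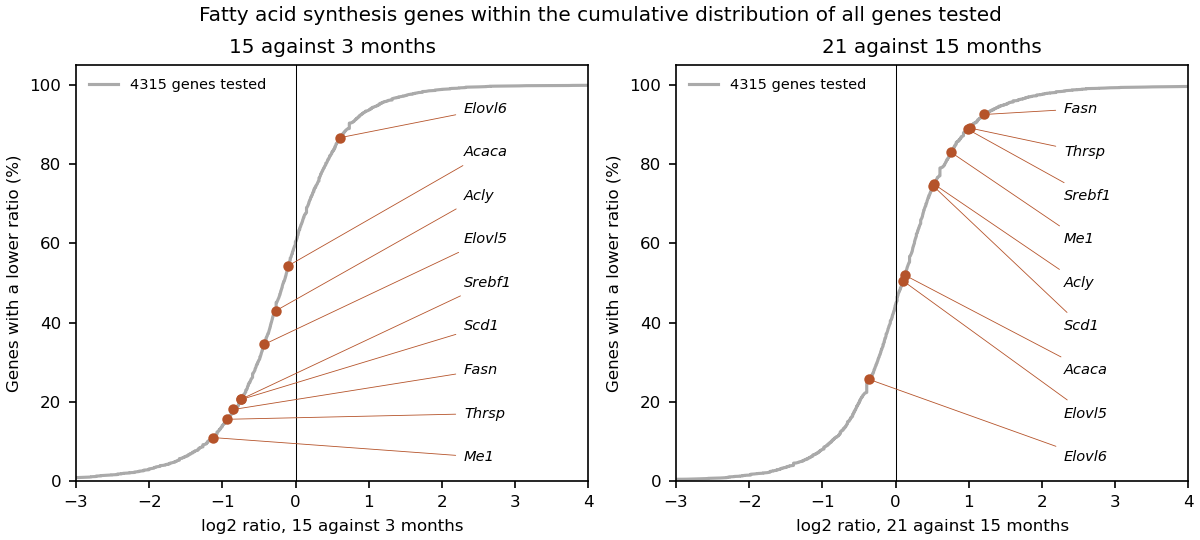
Cumulative distributions of the log2 ratio over the 4315 genes tested (grey lines, share of genes with a lower ratio in percent) for 15 against 3 months (left) and 21 against 15 months (right), with the 9 genes as orange points. Me1, Thrsp, Fasn, Scd1 and Srebf1 lie in the lower part on the left, and Fasn, Thrsp, Srebf1 and Me1 near the top on the right; with Gapdh as the scale, all log2 ratios shift by 0.91 on the left and by -0.57 on the right.

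Gapdh, a glycolytic enzyme and common reference, was itself low at 15 months, with 1363, 1008, 437 and 855 counts or normalised values of 1126, 851, 600 and 893. It moved the median of all genes from 3 to 15 months by 0.91 on the log2 scale. The other scales moved it by at most 0.13, and the direction of all 7 genes called in this comparison was the same on them. Of all calls from 3 to 15 months, 69% were lower, but 55.3% with TMM, 51.7% with library totals, 51.6% with the 7 genes and 2.37% with Gapdh. From 15 to 21 months, 35.9% of all calls were lower, but 47.8%, 51.4%, 50.3% and 94.9% on these scales.

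Ratios within a library do not depend on any scale and were used for 4 pairs of genes. Scd1 had 25.2 counts per count of Fasn at 3 months (from 23.5 to 26.9), 17 at 9 months (from 15.8 to 18.3), 27.1 at 15 months (from 24.1 to 30.5) and 16.7 at 21 months (from 15.6 to 17.9). The libraries of 3 and 15 months were thus alike within counting error and those of 9 and 21 months were lower, with changes to 0.675 and 0.665 of the 3 month ratio (two-sided Fisher's exact test, adjusted p = 6.79e-14 and 4.83e-16 over 12 tests). At 9 months Scd1 was at 0.593 and Fasn at 0.879 of the 3 month value, and at 21 months at 0.853 and 1.28.

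Elovl6 had 0.197 counts per count of Elovl5 at 3 months (from 0.154 to 0.248), 0.265 at 9 months, 0.405 at 15 months (from 0.308 to 0.529) and 0.295 at 21 months. The ratio was 2.06 times higher at 15 than at 3 months (Fisher's exact test, adjusted p = 0.000276), and the changes at 9 and 21 months were not detected at this depth (adjusted p = 0.128 and 0.0544). With increasing age, Thrsp had 0.243, 0.312, 0.229 and 0.199 counts per count of Fasn. No change of this ratio against 3 months passed the test (Fisher's exact test, adjusted p from 0.0544 to 0.768), although both genes fell at 15 months against 3 months by the exact binomial test. The ratio of 15 to 3 months was 0.943. For Acly per Acaca, with values of 4.24, 7.52, 3.78 and 5, the low counts of Acaca left wide intervals (2.37 to 6.28 at 15 months) and no change was detected (Fisher's exact test, adjusted p from 0.0843 to 0.768).

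**Figure D4:**
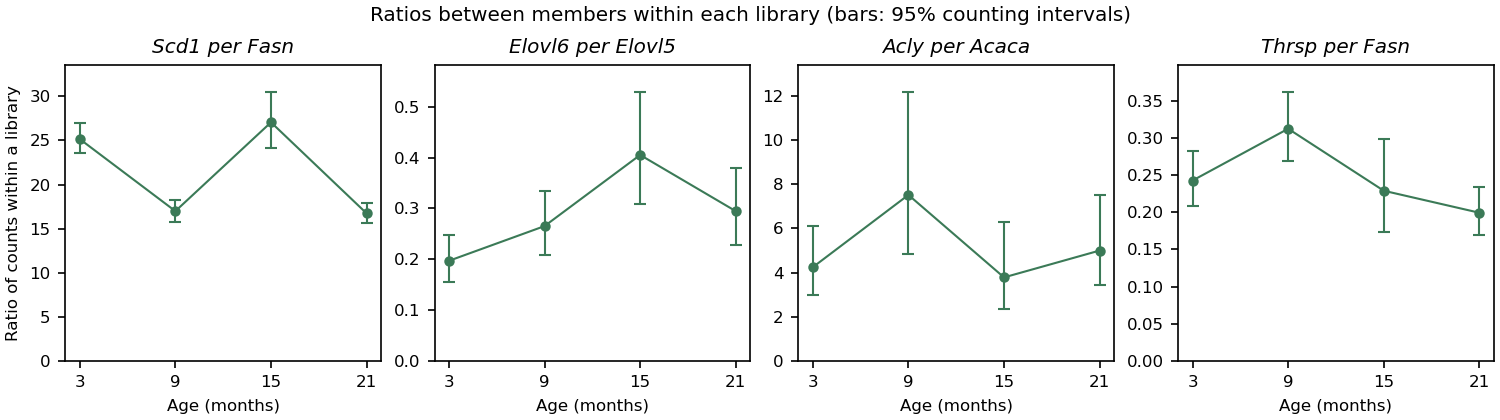
Ratios of the counts of 2 genes within the same library (vertical axes from 0) against age in months, for Scd1 per Fasn, Elovl6 per Elovl5, Acly per Acaca and Thrsp per Fasn, with bars for 95% counting intervals. Scd1 per Fasn is 25.2, 17, 27.1 and 16.7 with increasing age, and Elovl6 per Elovl5 is highest at 15 months with 0.405.

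A steady change with age was not found for any of these genes. In the linear trend of edgeR's quasi-likelihood test over the 4 libraries, 0 of the 9 genes tested passed an adjusted p of 0.05, and 0 had an unadjusted p below 0.05. DESeq2's Wald test called 0 of the 10 genes as well, also with 0 below an unadjusted p of 0.05. Among all 5569 genes tested with edgeR, 0.108% were called and 290 had an unadjusted p below 0.05. The fitted changes from 3 to 21 months ranged from -0.36 for Me1 (log2, SE 0.47) to 0.43 for Elovl6 (SE 0.44), with 0.24 for Fasn (SE 0.34), -0.17 for Scd1 (SE 0.3) and -0.29 for Elovl5 (SE 0.35). In this test a low value at a middle age counts as scatter, and 2 residual degrees of freedom remain. The scatter of the libraries around a line was 27.1% for a typical gene, beyond counting error, which the exact tests above do not include.

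As for variability, the variance of the centered log-ratio (natural logarithm) over the ages was 0.146 for Me1, 0.127 for Thrsp, 0.124 for Fasn, 0.0932 for Srebf1 and 0.0686 for Scd1. Of the 200 genes nearest in level, 94% had a lower variance than Thrsp, 93.5% than Fasn, 91% than Me1, 86.5% than Srebf1 and 82.5% than Scd1. For Elovl6 (0.0332), Acaca (0.0739), Acly (0.0224) and Elovl5 (0.0165) these shares were 47.5%, 46.5%, 37% and 36.5%. The first 5 genes thus varied more than most genes of a similar level and the other 4 did not. The profile of each gene was centred on its mean over the ages, and the median of the 9 profiles was 0.22, -0.12, -0.31 and 0.25 (log2) from 3 to 21 months. Acly (root mean square difference 0.133), Scd1 (0.148) and Srebf1 (0.158) were closest to it, and Elovl6 (0.428) was farthest.

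Among 494 other genes with at least 100 counts in every library, the profile most like this median was that of Rxra, the nuclear receptor that pairs with LXR and PPAR. It had 273, 215, 114 and 217 counts, or 225, 182, 157 and 227 after normalisation, at a root mean square difference of 0.0179. Cbs, an enzyme of the transsulfuration of homocysteine, followed with normalised read counts of 456, 368, 299 and 450 (0.041), then the interferon-induced Ifitm3 (0.0412), Hadh of fatty acid oxidation (0.0486) and the glycolytic Tpi1 (0.0595). This likeness rests on 4 libraries and is only a description.

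The wider pathway comprised 59 other genes of substrate supply, chain modification, glycerolipid assembly and regulation, of which 43 had enough counts. From 3 to 15 months, 13 of the 43 fell and 2 rose, beside 12.9% and 5.79% of all genes tested, and from 15 to 21 months 9 rose and 0 fell, beside 8.39% and 4.7%. With Gapdh as the scale these counts turned to 2 lower and 21 higher, and to 0 higher and 9 lower. From 3 to 9 months, 9 fell and 4 rose, beside 11.6% and 8.88% of all genes, and with Gapdh 3 fell and 15 rose. From 9 to 15 months, 8 fell and 2 rose, beside 9.92% and 4.98%, but 2 fell and 9 rose with Gapdh and 2 fell and 6 rose with the 7 genes. From 3 to 21 months, 8 fell and 3 rose, beside 10.5% and 7.97%, and with Gapdh 3 fell and 14 rose. On the Gapdh scale, the shares of all genes called in either direction were 32.5%, 45.1% and 25.1% for 9, 15 and 21 against 3 months. They were 23.5% from 9 to 15 months (15.2% with the 7 genes) and 28.3% from 15 to 21 months. The median ratio of the 43 genes was 0.799 from 3 to 15 months and 1.17 from 15 to 21 months, beside 0.891 and 1.06 over all genes tested. By function, 6 of 13 genes of elongation, desaturation and activation and 2 of 8 genes of substrate and NADPH supply fell from 3 to 15 months. Of the same genes, 0 of 13 and 4 of 8 rose from 15 to 21 months. For glycerolipid assembly and droplets, 3 of 9 genes fell and 2 of 9 rose in these steps. Among the regulators, 2 of 13 fell and 3 of 13 rose. The difference between these groups was not tested. None of 48 genes that could be tested was called in the edgeR trend (lowest adjusted p = 0.48).

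The most counted of these genes included Acsl1, Gpam, Fads1, Elovl2, Elovl3, Tecr, Dgat2, Fads2, Idh1, Plin2 and Insig2, 11 genes that are described here. Gpam, which starts triglyceride synthesis, had 404, 382, 149 and 324 counts and followed the course of Thrsp, with ratios of 0.613 from 3 to 15 months (from 0.505 to 0.742, exact binomial test, adjusted p = 4.55e-06) and 1.65 from 15 to 21 months (from 1.36 to 2.02, adjusted p = 9.18e-06). Plin2, which coats lipid droplets, had 208, 149, 76 and 149 counts, with ratios of 0.607 (exact binomial test, adjusted p = 0.00196) and 1.49 (adjusted p = 0.0411). Both thus fell at 15 months and rose again, but with Gapdh they were above the 3 month value (log2 ratios 0.20 and 0.19), and the rise of Plin2 was called on none of the 6 other scales. Elovl3, an elongase of very long chains, had 295, 273, 69 and 125 counts and fell most among the 11, to 0.389 at 15 months (from 0.295 to 0.507, exact binomial test, adjusted p = 1.08e-12). At 21 months it was still at 0.536 of the 3 month value (from 0.431 to 0.663), and both falls were called on all 6 other scales. The desaturase Fads1 (386, 347, 147 and 232 counts) fell to 0.633 at 15 months and Elovl2 (365, 319, 159 and 191 counts) to 0.724 (exact binomial test, adjusted p = 3.14e-05 and 0.00636), and both were higher with Gapdh (log2 ratios 0.25 and 0.44). The call of Elovl2 was lost with library totals and with the 7 genes.

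Insig2, which holds SREBP in the endoplasmic reticulum, had 147, 204, 51 and 98 counts. It rose to 1.42 at 9 months and was at 0.577 of the 3 month value at 15 months (exact binomial test, adjusted p = 0.0104 and 0.00589), the former not called with the 7 genes and the latter at a log2 ratio of 0.11 with Gapdh. Acsl1, which activates fatty acids, had 627, 576, 299 and 371 counts and fell to 0.793 at 15 months and 0.748 at 21 months (exact binomial test, adjusted p = 0.00853 and 0.00018). The first of these calls was lost with TMM, library totals and the 7 genes, and its direction changed with Gapdh (log2 ratio 0.57), with which the second was lost as well (log2 ratio -0.08). Idh1, a cytosolic source of NADPH, was higher at 9 months (129 and 256 counts, ratio 2.03, exact binomial test, adjusted p = 9.74e-10), as was Tecr of the elongation cycle (183 and 257 counts, ratio 1.44, adjusted p = 0.00221). Fads2 fell at 9 months (218 and 150 counts, ratio 0.704, exact binomial test, adjusted p = 0.00831), as did Plin2 (ratio 0.733, adjusted p = 0.0252), both without a call when Gapdh was the scale. For Dgat2, which completes triglycerides (210, 192, 110 and 159 counts), no comparison was called on this scale (exact binomial test, adjusted p at least 0.499), but with Gapdh it was called higher at 15 than at 3 months (log2 ratio 0.71).

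**Figure D5:**
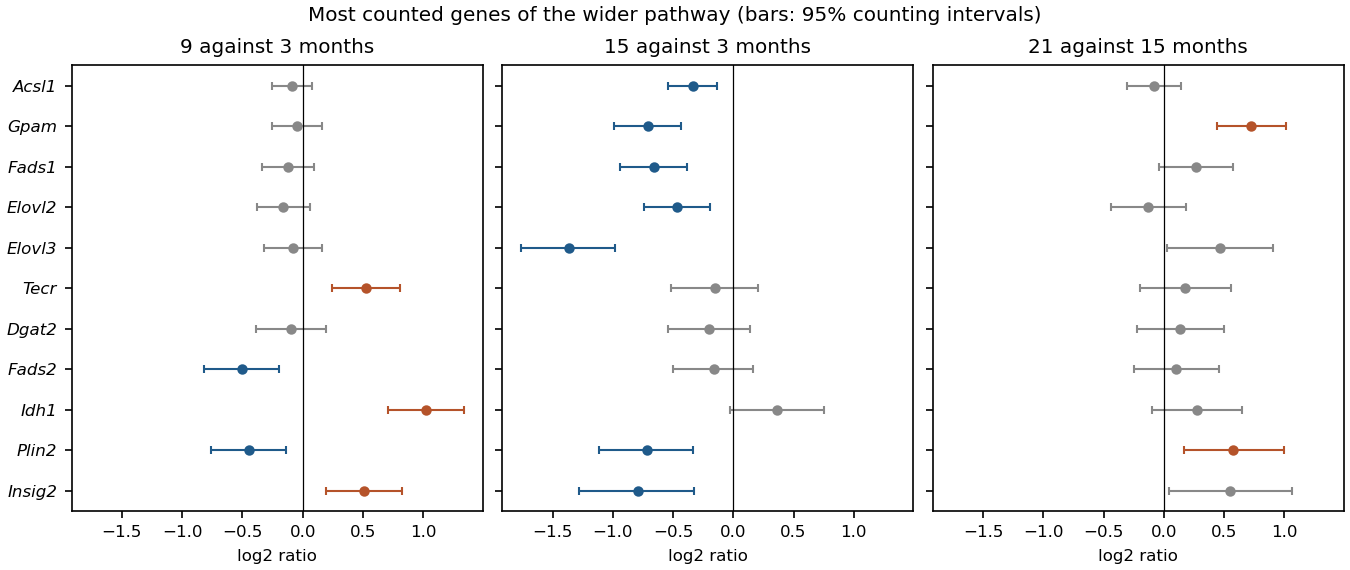
Log2 ratios of normalised read counts of the 11 genes described from the wider pathway, in panels for 9 against 3, 15 against 3 and 21 against 15 months, with bars for 95% counting intervals, blue for called lower, orange for called higher and grey for not called. In the middle panel 7 of the 11 genes are called lower, and in the right panel Gpam and Plin2 are called higher. With Gapdh as the scale, only Elovl3 is called lower in the middle panel, where 2.37% of the calls among all genes were lower.

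Other cell types were also counted in the same pools, and their part in the values above was not tested. All 7 of 7 Kupffer cell and macrophage markers found in the files had counts in every library, with a summed normalised read count from 541 (3 months) to 695 (21 months). The 5 endothelial markers summed to 424 at 3 months and to 261 at 15 months, and the 6 stellate cell markers to 262 at 3 months and 458 at 9 months. Cholangiocyte markers (Krt19, Krt7, Epcam and Spp1) summed to between 4.18 and 23.3, with Epcam at 0 in all libraries, and B and T cell markers to between 8.45 and 16.7. Among the adipocyte list only Fabp4 (29, 30, 7 and 24 counts) and Lipe (4, 5, 6 and 10 counts) were counted.

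The read length was 35 bases, and each such stretch within 100 bases of a 5’-end was looked up in NCBIM37, allowing 1 mismatch. A further place was found for 4.55% of the stretches of Elovl6, for 11.4% of those of Me1 and for 0 of the other 8 genes. No place at all was found for 101 of 412 stretches of Acaca, 21 of 213 of Acly, 16 of 264 of Srebf1 and 7 of 198 of Elovl5. What this did to the counts of these genes was not tested. The paralogs of Scd1, Scd2, Scd3 and Scd4, had at most 23, 1 and 1 counts in any library. Genes on the opposite strand overlap Acaca (Gm11437 and Gm17722), Srebf1 (Rai1) and Me1 (A330041J22Rik), with at most 20, 21 and 0 counts in any library, and whether the counting used the strand is not given in the sources used here.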

How the data were processed

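Liver RNA of 24 male mice was pooled for each of 4 ages, enriched for capped 5’-ends and sequenced as 35 bp SOLiD reads. The authors mapped the reads to mm9 with the CLC Genomic workbench, and the submitters' processing notes name HTSeq. The deposited values are raw counts of reads per gene symbol, without normalisation. The ages were taken from the labels. Rows of unassigned reads were left out.

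Counts were divided by the geometric mean of the genes counted in all libraries. Genes with at least 20 counts in 1 library were compared between libraries with the exact two-sided binomial test of the 2 counts given their sum, Benjamini-Hochberg adjustment and an adjusted p of 0.05. Intervals are exact 95% Clopper-Pearson or Poisson intervals and cover counting error only. The age trend was tested with edgeR 4.0.16 (TMM, filterByExpr), and DESeq2 1.42.0 was an alternative, in R 4.3.3. Python 3.11.15 with scipy 1.17.1 was used otherwise. On simulated counts with the changed genes known, 78% of 200 genes changed 4-fold in the 15 month library were recovered against the 3 month library (3789 genes), and 84% of 200 genes changed 8-fold in the trend (5146 genes). The former counts were drawn with counting error only, the latter with the fitted scatter between libraries. Smaller changes were not simulated.

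Gene positions are those of GENCODE M1 on NCBIM37, which held 33923 of the 33924 symbols. The genes described, the lists and the rules were chosen with earlier results of these data known. Named were the 10 genes, the 12 most counted of the wider list (1 of them is not reported here), and the 5 most alike in profile. Alternatives were other scales (TMM, DESeq2, totals, Gapdh, and the geometric mean of Atp5h, Gsk3b, Sirt2, Nono, Tprkb, Tspo and Ttr, the 7 normalisation genes of the study), other minimum counts, a 1.5-fold rule and leaving out each library. Among the 7 genes, Nono had 8, 13, 7 and 14 counts and Tprkb 19, 28, 10 and 18 with increasing age. The exact tests do not include the counting error of a scale. In the study Nono did not pass the RNA-sequencing assessment, and Ttr did not pass that by Nanostring hybridization. Gapdh passed the former but not the latter, and the study did not select it for normalisation. A geometric mean over genes with 20 counts in every library was chosen after seeing the data.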

Additional observations from a re-analysis of the deposited data

How the results depend on the processing

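With 1 pool per age, no setting can show the spread between mice, and genes with few reads (Acaca, Me1 and Pnpla3) are limited by depth. No paired analysis was possible because each age has 1 library. The counts of genes called, both directions together, stayed within 1.5 times unless listed here. This rule does not see a change of direction. With Gapdh, 3 genes were called higher and 1 lower from 3 to 9 months, in place of 0 and 4. From 15 to 21 months it was 1 higher and 3 lower, in place of 5 and 0. From 3 to 9 months, 4 of the 9 genes were called, but 2 with the geometric mean of genes with 20 counts in every library, 2 without a minimum count and 2 with the test and a 1.5-fold change. Of all genes tested, 20.5% were called on the scale used, and 20.3%, 5.88% and 15.6% in these settings. From 3 to 15 months, 7 were called and 4 with Gapdh, all higher, and 6 without a minimum count, all lower. The shares over all genes tested were 18.7%, 45.1% and 5.73%. From 3 to 21 months, 3 were called, 6 with Gapdh, and 0 with the 1.5-fold rule alone or with the test added. Over all genes these shares were 18.5%, 25.1%, 38.4% and 14.6%. From 9 to 15 months, 2 were called, 4 with library totals, 4 with the 7 genes of the study and 5 with Gapdh, beside 14.9%, 13.3%, 15.2% and 23.5% of all genes. From 15 to 21 months, 5 were called and 3 with the test and a 1.5-fold change, beside 13.1% and 9.76% of all genes. In the age trend 0 genes were called in each setting and without each library in turn (0 to 0), and 3 had an unadjusted p below 0.05 without the 21 month library (lowest adjusted p = 0.333, edgeR's quasi-likelihood test). Without that library, this was so for 391 of all 5496 genes tested. Ratios within a library kept their direction with a pseudocount of 0.5.

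Of 270 single log2 ratios on the 6 other scales, 205 kept direction and call, 21 lost the call, 16 gained one and 28 changed direction. With Gapdh, the direction changed from 3 to 9 months for Fasn (0.22) and Elovl5 (0.10), and from 3 to 15 months for Fasn (0.058), Acaca (0.81), Acly (0.64), Scd1 (0.16), Elovl5 (0.48) and Srebf1 (0.16). It also changed from 3 to 21 months for Scd1 (0.10) and Elovl5 (0.0046), from 9 to 15 months for Acly (0.21), Elovl5 (0.37), Srebf1 (0.19) and Me1 (0.44), and from 15 to 21 months for Acaca (-0.45), Acly (-0.045), Scd1 (-0.058) and Elovl5 (-0.47). With library totals this was so for Acly from 3 to 9 months (-0.012), Acaca from 3 to 15 months (0.028), and Elovl5 (0.035) and Me1 (0.10) from 9 to 15 months. With the 7 genes it was so for Acly (-0.13) and Elovl6 (-0.028) from 3 to 9 months, Acaca from 3 to 15 months (0.030), and Elovl5 (0.16) and Me1 (0.23) from 9 to 15 months, and with TMM for Me1 from 9 to 15 months (0.013). The median log2 ratio of all genes shifted by over 0.1 with Gapdh (0.40, 0.91, 0.33, 0.50 and -0.57 in the order 9 and 15 against 3, 21 against 3, 15 against 9 and 21 against 15 months), with library totals (0.13 for 15 against 3 and 0.17 for 15 against 9 months) and with the 7 genes (-0.16, 0.13 and 0.29 for 9 and 15 against 3 and 15 against 9 months). The share of lower calls among all genes from 9 to 15 months was 66.6% on the scale used and 54.7%, 39.9%, 22.9% and 7.41% with TMM, totals, the 7 genes and Gapdh. It was 56.6% from 3 to 9 months and 75.3% and 12.1% with the 7 genes and Gapdh, and 56.9% from 3 to 21 months and 17.8% with Gapdh. The cause of these shifts was not tested.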

Other observations

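Some genes of the wider pathway stand out although their counts put them outside the most counted ones, and they were chosen after their values had been seen. Pklr, the liver pyruvate kinase that feeds glycolytic carbon into citrate, had 159, 47, 46 and 132 counts at 3, 9, 15 and 21 months. It fell to 0.302 of the 3 month value at 9 months and was at 0.481 at 15 months (exact binomial test, adjusted p = 4.04e-13 and 9.79e-05). From 15 to 21 months it rose 2.18-fold (adjusted p = 7.41e-05 in the exact binomial test). Acacb, the mitochondrial acetyl-CoA carboxylase whose product restrains fatty acid oxidation, had 108, 44, 19 and 55 counts. It fell to 0.417 and 0.292 at 9 and 15 months and rose 2.20-fold to 21 months (exact binomial test, adjusted p = 1.05e-05, 1.09e-06 and 0.0267). Both were thus low in the middle pools against the youngest, as were Scd1 and Me1. After normalisation Pklr was at 131, 39.7, 63.2 and 138, with a ratio of 21 to 3 months of 1.05 (from 0.827 to 1.33). In the same comparison Acacb was at 0.644 (from 0.457 to 0.899), Scd1 at 0.853 and Me1 at 0.768. With Gapdh as the scale, the falls of both at 9 months and that of Acacb at 15 months were called, and the other changes kept their direction without a call.

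Nr1h3, encoding the oxysterol receptor LXR alpha, had 77, 73, 21 and 60 counts and was at 0.453 of the 3 month value at 15 months (exact binomial test, adjusted p = 0.00846). From 15 to 21 months it rose 2.17-fold (exact binomial test, adjusted p = 0.0207), and neither change was called with Gapdh (log2 ratios -0.23 and 0.55). Mid1ip1, a relative of Thrsp, had 48, 53, 14 and 50 counts and rose 2.72-fold from 15 to 21 months (exact binomial test, adjusted p = 0.00856), a rise that was not called with Gapdh either (log2 ratio 0.87). Cd36, a fatty acid transporter of the cell surface, had 34, 50, 41 and 63 counts and did not dip, with a ratio of 2.34 from 3 to 21 months (exact binomial test, adjusted p = 0.000911). The carbohydrate-sensing factor gene Mlxipl had 71, 69, 66 and 73 counts, and no comparison of it was called on the scale used (exact binomial test, adjusted p at least 0.068). It was called higher at 15 than at 3 months on all 6 other scales (log2 ratios from 0.67 to 1.54) and higher at 15 than at 9 months on 4 of them (from 0.71 to 1.14).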
